A study of Mus musculus with 4 samples.

Results

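Among the 30049 genes of the deposited table, 13 were under 1 TPM in both control libraries and at least 4 TPM in both libraries of DMSO-treated 2-cell embryos. They were chosen by these TPM values, which give a gene's share of all transcripts after scaling by transcript length. Genes whose symbol is Zfp plus digits, or begins with Hist, Rpl, Rps, Pramel or Pramef, were set aside, which removed 1 gene, the zinc finger gene Zfp791. Its values were 0 TPM in both control libraries and 26.6 and 19.9 TPM in the DMSO libraries. Because the same values chose the 13 genes, their difference between control and DMSO embryos is a description, and no test of it is given.

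Wild-type zygotes from BDF1 by BDF1 crosses (F2 embryos) were cultured in KSOM, a medium for preimplantation embryos, from 18 h after hCG injection. The control group received no addition, and the other group received 2% dimethyl sulfoxide (DMSO), a common solvent, for 24 h. At the 2-cell stage 50 embryos were collected for each group, and 2 libraries were sequenced for each. Whether the libraries of a group came from separate pools of embryos is not stated, so p-values below measure only the spread between these libraries, which may be technical. In RNA pooled from whole embryos, more cells with a transcript and more RNA per cell cannot be told apart. Control 1, control 2, DMSO 1 and DMSO 2 had 18661, 18369, 18705 and 18952 genes above 0, and the sequencing depth is unknown from TPM values.

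In the mouse the 2-cell stage is when the embryo's own genome becomes broadly active, while RNA stored in the egg is broken down. Many genes transcribed at this stage belong to families of near-identical copies. Quantification by kallisto matches short words of sequence to transcripts and divides reads that fit several transcripts by an estimate, so the value of a copy depends on the few bases that set it apart. The identity of the embryos was checked with 14 oocyte and 2-cell markers. These summed to 1807 and 1192 TPM in the control libraries and 4902 and 3698 TPM in the DMSO libraries. The most abundant was Oosp1, an oocyte-secreted protein gene, at 877.3, 575.9, 2086 and 1763 TPM in control 1, control 2, DMSO 1 and DMSO 2. Others of the list were low or nearly absent, such as Nlrp5, an oocyte gene needed for the first divisions, at 0, 0.142, 0 and 0.129 TPM, and Zp3, a gene of the egg coat, at 1.56, 2.35, 1.44 and 0.956 TPM.

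Of the 30049 genes, 17464 (58.1%) were under 1 TPM in both control libraries. Among these, 14 reached 4 TPM in both DMSO libraries, Zfp791 included. A larger number, 91 genes, reached it in a single DMSO library, 70 of them in replicate 1 and 21 in replicate 2. With the groups exchanged, 25 genes were under 1 TPM in both DMSO libraries and at least 4 TPM in both control libraries after the same symbols were set aside. The set is therefore smaller than its reverse, and both are small beside the genes that passed the limit in 1 library.

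**Figure D1:**
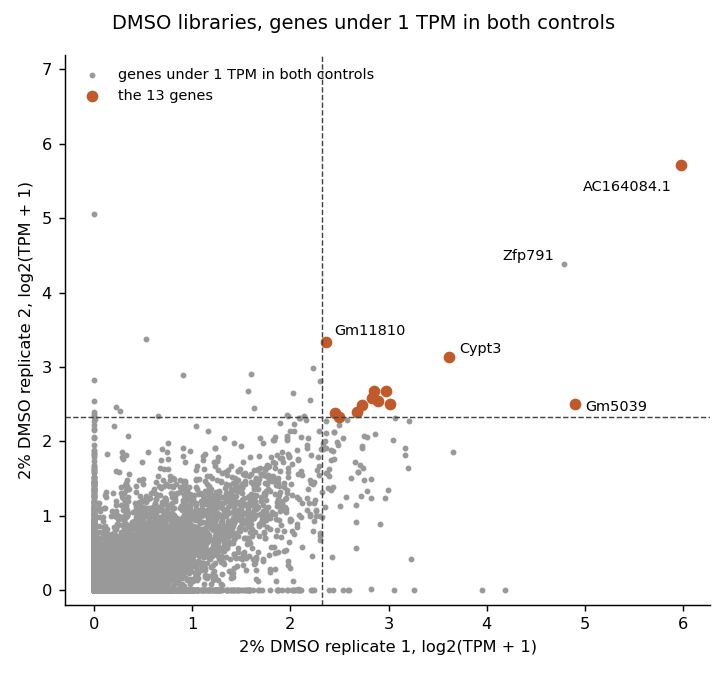
Genes under 1 TPM in both control libraries, by log2(TPM + 1) in DMSO replicate 1 (x axis) and DMSO replicate 2 (y axis). Dashed lines mark 4 TPM, orange points are the 13 genes, and the grey point inside both limits is Zfp791, left out by its symbol.

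GENCODE M21 annotates 10 of the 13 genes as protein coding, 1 as an immunoglobulin variable segment (Ighv6-6), 1 as a T cell receptor variable pseudogene (Trav13-3) and 1 as a processed pseudogene (Gm11810). The table holds 52 long noncoding RNA genes (0.175% of those annotated), so it can say little of that class, and none was in the set. Antigen receptor segments made up 15.4% of the set (2 of 13), 1.93% of the annotated genes of the table and 0.193% of those that averaged 1 TPM or more. Protein-coding genes made up 76.9% of the set, against 71.7% of the annotated genes, 90.4% of those that averaged 1 TPM or more, as all members did, and 88.0% of the 25 genes of the reverse set. Among the 12 members on assembled chromosomes, 5 chromosomes held 2 each, at distances of 4.76 to 146 Mb, so none of these lay close to another.

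Levels among the 13 were low except for 1 gene. The lower of the DMSO values was under 6 TPM in 11 of 13. In 11 of 13 the higher DMSO value was under 2 times the lower, the exceptions being Gm5039 and Gm11810. DMSO replicate 1 was above replicate 2 in 12 of 13. Both controls were listed at 0 for 4 genes (AC164084.1, Ighv6-6, Gm5039 and Gm10491) and 1 control for 2 genes (Trav13-3 and Gm2888). A value of 0 in this table does not show that a transcript was absent, since genes that nearly every cell uses were also listed at or near 0. Atp6v1f, a subunit of the proton pump of lysosomes, was at 0 in all libraries, and Ppp2r1a, a phosphatase subunit, at 0, 0.499, 0 and 0 TPM. Polr2a, the large subunit of RNA polymerase II, was at 0.205, 0.860, 0.417 and 0 TPM. The actin gene Actb had 1.09, 0.706, 8.58 and 0 TPM, so its DMSO libraries lay far apart.

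**Figure D2:**
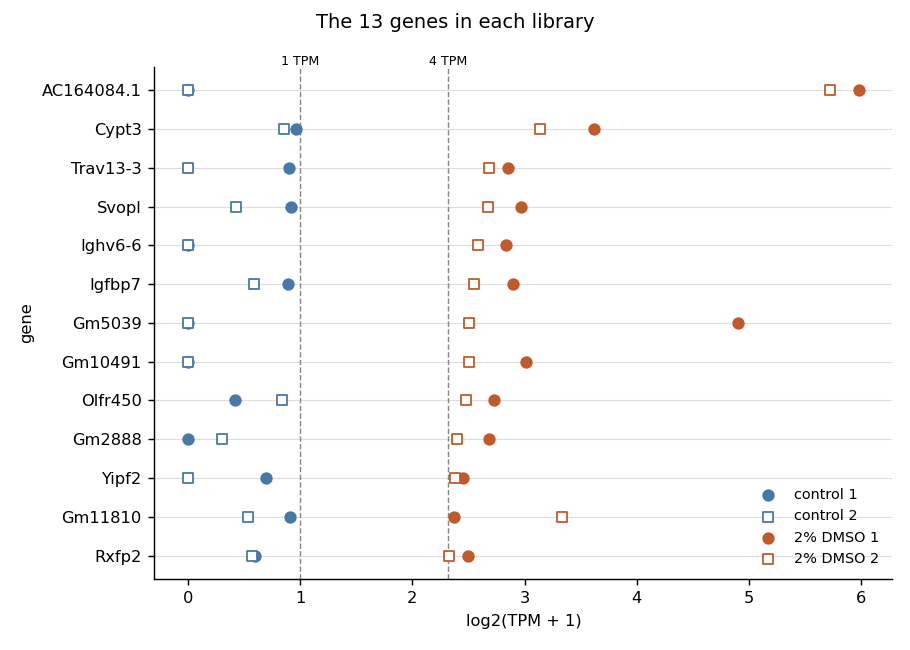
The 13 genes (rows) by log2(TPM + 1) in each library, with blue for control, orange for 2% DMSO, circles for replicate 1 and squares for replicate 2. Dashed lines mark the limits of 1 and 4 TPM, and AC164084.1 stands highest while most of the others lie just above 4 TPM in DMSO.

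Several members lay close to the limits. Inside the control limit, Cypt3 had 0.944 TPM in its higher control library, Svopl 0.890, Gm11810 0.875, Trav13-3 0.863 and Igfbp7 0.855. Just outside it were Tmem114 at 1.04 TPM, Gpr1 at 1.11, Fam187b at 1.11, Krt88 at 1.12 and Gm7719 at 1.20, each with at least 4 TPM in both DMSO libraries. Inside the DMSO limit, Rxfp2 had 4.004 TPM in its lower DMSO library, Gm11810 4.16, Yipf2 4.22, Gm2888 4.28 and Olfr450 4.59. Just outside it were 1700049E17Rik1 at 3.96 TPM, Gm14915 at 3.94, Ildr1 at 3.87, Pcdh8 at 3.85 and 1700025G04Rik at 3.81, all under 1 TPM in both controls. The border of the set is thus drawn through a continuum of low values.

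How far each gene can be told from others was measured as the share of its 31-base words, on either strand, that also occur in transcripts of other genes. Of the 12 members with a transcript sequence, the median share was 33.0%, against 4.10% for the annotated genes of the table, 2.71% for those that averaged 1 TPM or more and 0.484% for the reverse set. Under 20% was shared by 5 members, namely Cypt3, Igfbp7, Olfr450, Rxfp2 and Svopl. All 5 were above 0 in both controls, from 0.336 to 0.944 TPM, and reached 4.004 to 11.3 TPM in DMSO. Among the 7 with a larger share, 2 were above 0 in both controls. Members were also short, with a median longest transcript of 1200 bases against 2026 in the annotated table, and 5 of 13 (38.5%) were under 700 bases against 21.3%.

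**Figure D3:**
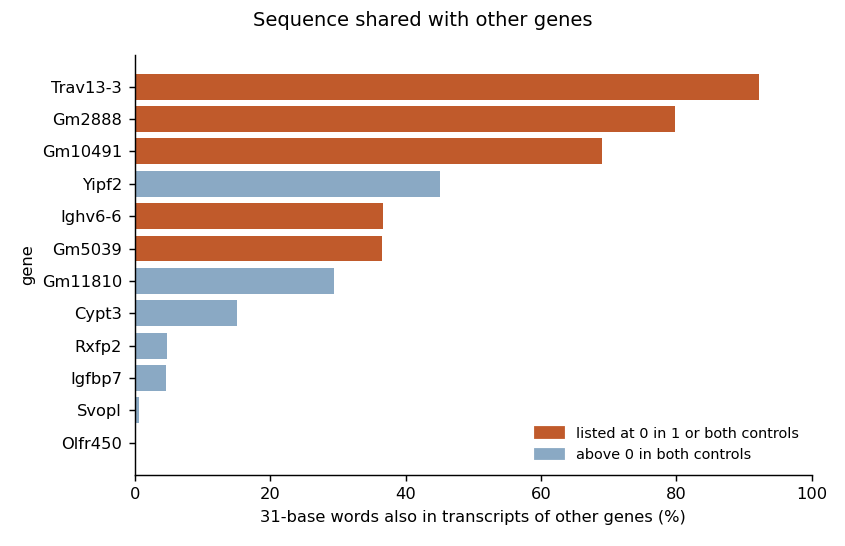
Share of each gene's 31-base words (x axis, %) that also occur in transcripts of other genes, for the 12 genes with a transcript sequence. Orange bars are genes listed at 0 in 1 or both controls and blue bars genes above 0 in both, and the 5 shortest bars are all blue.

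To place the relatives and neighbours of the 13 genes, limma was run on log2(TPM + 1) over the 12038 genes that averaged 1 TPM or more, with Benjamini-Hochberg adjustment. At an adjusted p-value under 0.05, 773 genes (6.42%) were higher and 1697 (14.1%) lower in DMSO-treated embryos. Of the genes called, 31.3% were higher, against 48.7% with quantile normalization, where 1031 were higher and 1085 lower. Fold changes below refer to log2(TPM + 1) and so are too small for genes of low level, and their median over all genes was -0.09. Without control replicate 1, control replicate 2 or DMSO replicate 1, limma called 0 genes in either direction, with 1717, 719 and 922 genes higher and 2028, 1883 and 2156 lower at an unadjusted p under 0.05, so that every call named below is lost in each of these 3 fits. The same holds with no filter on low values, where 0 of 22257 genes were called, with 2124 higher and 3244 lower at an unadjusted p under 0.05. Without DMSO replicate 2, 607 genes were higher and 1276 lower.

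Igfbp7 encodes a secreted protein of the insulin-like growth factor binding protein group, which acts outside the cell on growth factor signals. It lies on chr5:77349240-77408041 (GRCm38, minus strand). Its values were 0.855 and 0.507 TPM in the control libraries and 6.44 and 4.84 TPM in the DMSO libraries. Of its 1209 exon bases, 85 lie in an untranslated region of Polr2b, an RNA polymerase II subunit gene on the opposite strand, and the words shared with Polr2b are 4.57% of its words. Polr2b had 91.3, 79.6, 46.0 and 54.1 TPM in control 1, control 2, DMSO 1 and DMSO 2 (log2 fold change -0.76, SE 0.26, limma adjusted p = 0.0793, not called). The direction of Igfbp7 was fixed by the choice of the set, and the part of Polr2b reads in its level was not tested. Of the 7 other Igfbp genes of the table, 1 was abundant enough to be tested. This was Igfbp2 at 7.54, 4.74, 1.22 and 2.67 TPM (log2 fold change -1.29, SE 0.41, limma adjusted p = 0.0649, not called). With the replicate number as a block, a fit not used for the calls, Igfbp2 was called lower (limma adjusted p = 0.0357). That fit called 2981 of all 12038 genes lower.

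Rxfp2 encodes a G protein-coupled receptor for the hormone Insl3, known for its part in the descent of the testis. It lies on chr5:150018675-150082184 (plus strand). Its values were 0.514 and 0.483 TPM in the controls and 4.65 and 4.004 TPM in DMSO, the lowest values of the set in DMSO replicate 2. The other relaxin family receptors showed no such level. Rxfp1 and Rxfp3 were under 0.2 TPM in every library, and Rxfp4 was listed at 0 in all. The ligand gene Insl3 differed the other way, with 2.06 and 2.92 TPM in the controls and 0 and 0.173 TPM in DMSO, and was called lower (log2 fold change -1.68, SE 0.35, limma adjusted p = 0.0285). It was in the test only through its control values, and with a pseudocount of 0.1 it was not called (limma adjusted p = 0.0501). Rln3, the gene of another relaxin peptide, had 26.8, 10.4, 24.4 and 12.7 TPM, with overlapping groups. The other ligand genes tested were Rln1 at 0.956, 0.435, 1.47 and 1.26 TPM and Insl6 at 1.16, 1.06, 1.69 and 1.18 TPM, neither of them called (limma adjusted p = 0.327 and 0.684). Rln1 was in the test only through its DMSO values.

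Olfr450 belongs to the olfactory receptors, a very large family of G protein-coupled receptors that detect odours in the nose. It lies on chr6:42811939-42819081 (plus strand), and none of its words occurred in another gene's transcripts. Its values were 0.336 and 0.788 TPM in the controls and 5.64 and 4.59 TPM in DMSO. The olfactory receptor genes beside it had no or very low values, with Olfr38, Olfr452 and Olfr448 listed at 0 in all libraries and Olfr449 at 0.184, 0, 0 and 0.160 TPM. Of the 1008 other olfactory receptor genes 805 were listed at 0 in all libraries. Of the 14 that could be tested, 2 were called higher and none lower, where 6.42% and 14.1% of all genes were. Olfr376 had 8.27, 7.57, 67.2 and 51.1 TPM (log2 fold change 2.74, SE 0.29, limma adjusted p = 0.0181), and Olfr881 had 2.45, 3.24, 9.12 and 13.5 TPM (1.66, SE 0.35, limma adjusted p = 0.0280).

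Svopl encodes a membrane protein related to the synaptic vesicle protein Svop and to transporters of small molecules. It lies on chr6:37983739-38046996 (minus strand) and shares 0.672% of its words. Its values were 0.890 and 0.344 TPM in the controls and 6.83 and 5.37 TPM in DMSO. Of the 4 other Svop and Sv2 genes, 1 could be tested, Sv2a, at 1.51, 0.143, 2.32 and 1.81 TPM (log2 fold change 0.85, SE 0.46, limma adjusted p = 0.208, not called). Sv2a was in the test only through its DMSO values. Svop itself was lower than Svopl in both DMSO libraries, at 0.697, 1.26, 0.636 and 0.270 TPM. The genes on either side of Svopl, Trim24 and Atp6v0a4, were not called (limma adjusted p = 0.757 and 0.344).

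Yipf2 encodes a Yip1 family protein of Golgi membranes, a group that takes part in vesicle traffic. It lies on chr9:21588682-21592828 (minus strand). Its values were 0.624 and 0.000903 TPM in the controls and 4.48 and 4.22 TPM in DMSO. Of its 2174 exon bases, 1025 overlap exons of Carm1 on the opposite strand, 1020 of them in untranslated sequence. Carm1, an arginine methyltransferase gene, was listed at 0, 1.15, 1.57 and 0.587 TPM, which is below Yipf2 in each DMSO library. Without strand in the counting, reads from these overlapping bases cannot be told apart, so the value of Yipf2 is uncertain. Of the 6 other Yipf genes 5 could be tested, all more abundant than Yipf2. None was called higher and 2 were called lower (14.1% of all genes were), Yipf5 (log2 fold change -1.31, SE 0.29, limma adjusted p = 0.0312) and Yipf1 (-1.30, SE 0.34, limma adjusted p = 0.0439). The call of Yipf1 was lost with a pseudocount of 0.1 and with median-ratio or quantile scaling (limma adjusted p = 0.0530 to 0.0888). With the replicate number as a block, a fit not used for the calls, 3 of the 5 Yipf genes tested were called lower. That fit called 2981 of all 12038 genes lower.

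Cypt3 belongs to the cysteine-rich perinuclear theca genes, which are known from spermatids, where their proteins lie around the condensing nucleus. It lies on chrX:153558593-153559429 (plus strand). Its values were 0.944 and 0.815 TPM in the controls and 11.3 and 7.80 TPM in DMSO. With members ranked by the lower of each gene's own DMSO values, it was the second highest of the set. Its start is preceded by a stretch that it shares with other Cypt genes, and the sequences just upstream of the RefSeq starts are given to show it (RefSeq, GRCm38.p6, 5′ to 3′ on the gene's strand). They are chrX:153558482-153558592 for Cypt3, chrX:105499661-105499771 for Cypt2, chrX:16522762-16522868 for Cypt1, chr9:24625085-24625184 for Cypt4 and chrY:2170410-2170482 for Zfy2, a Y-linked zinc finger gene. Capitals mark the run of 58 bases common to the Cypt genes and, in Zfy2, the 33 bases that are its longest unbroken match to the run.
Cypt3: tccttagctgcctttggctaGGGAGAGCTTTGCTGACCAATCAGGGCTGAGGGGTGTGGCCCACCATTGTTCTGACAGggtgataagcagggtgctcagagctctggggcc
Cypt2: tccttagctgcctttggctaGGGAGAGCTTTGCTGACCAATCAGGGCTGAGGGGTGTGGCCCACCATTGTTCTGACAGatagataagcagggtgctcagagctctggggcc
Cypt1: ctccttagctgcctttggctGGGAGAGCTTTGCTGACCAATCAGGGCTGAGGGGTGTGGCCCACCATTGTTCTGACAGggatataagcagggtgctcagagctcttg
Cypt4: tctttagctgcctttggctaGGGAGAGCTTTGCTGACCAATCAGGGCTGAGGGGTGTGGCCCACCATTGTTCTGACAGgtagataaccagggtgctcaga
Zfy2: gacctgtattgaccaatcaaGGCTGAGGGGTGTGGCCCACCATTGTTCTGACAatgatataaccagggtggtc

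The 58-base run occurred in the promoters of Cypt1, Cypt2, Cypt3 and Cypt4 and in no other of the 32851 RefSeq promoters. In Cypt3 it begins 91 bases before the start. It contains the letters CCAAT, which 33.8% of all promoters hold in the 250 bases before the start on either strand. Among the 7 members with a RefSeq promoter, CCAAT was found in Cypt3 alone, GGGCGG in Igfbp7 alone (32.7% of all promoters) and TATAAA in none (12.4%). These matches describe the sequence and do not show binding.

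Besides Cypt3, whose difference was fixed by the choice of the set, Cypt1, Cypt2 and Cypt4 carry the run. In these 3 genes both DMSO values lay above both control values, as they did in 25.5% of the 22257 genes above 0 in any library. Cypt2 had 1.48 and 0.923 TPM in the controls and 13.8 and 7.67 TPM in DMSO, and was called higher (log2 fold change 2.37, SE 0.39, limma adjusted p = 0.0209). Cypt1 had 2.86 and 0.329 TPM against 14.7 and 4.98 TPM, a difference of similar size with a wider spread (2.10, SE 0.65, limma adjusted p = 0.0634, not called). With the replicate number as a block, a fit not used for the calls, both Cypt1 and Cypt2 were called (limma adjusted p = 0.00298 to 0.00351). That fit called 2151 of all 12038 genes higher. Leaving out a library left the log2 fold changes of Cypt1 and Cypt2 at 1.33 to 2.87. Cypt4, which shares 9.36% of the words of Cypt3, had 0.339 and 0.176 TPM against 1.96 and 1.37 TPM and was too low to be tested. Zfy2 had 0.958 and 0.806 TPM in the controls and 0.838 and 0.521 TPM in DMSO.

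Of the Cypt genes for which no promoter was compared, Cypt12 had 0.203, 0.210, 1.71 and 1.84 TPM, Cypt15 0, 0.455, 0.231 and 1.33 TPM, and Cypt14 was listed at 0 throughout. The 6 Cypt genes other than Cypt3 summed to 4.89 and 2.09 TPM in the controls and to 32.3 and 17.2 TPM in DMSO. In 4 of the 5 that were above 0 in any library both DMSO values lay above both control values, against 25.5% of all such genes, and these 4 were Cypt1, Cypt2, Cypt4 and Cypt12. Leaving out a library left the log2 fold change of Cypt2 at 1.99 to 2.75 with limma adjusted p-values of 0.0309 to 0.160.

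**Figure D4:**
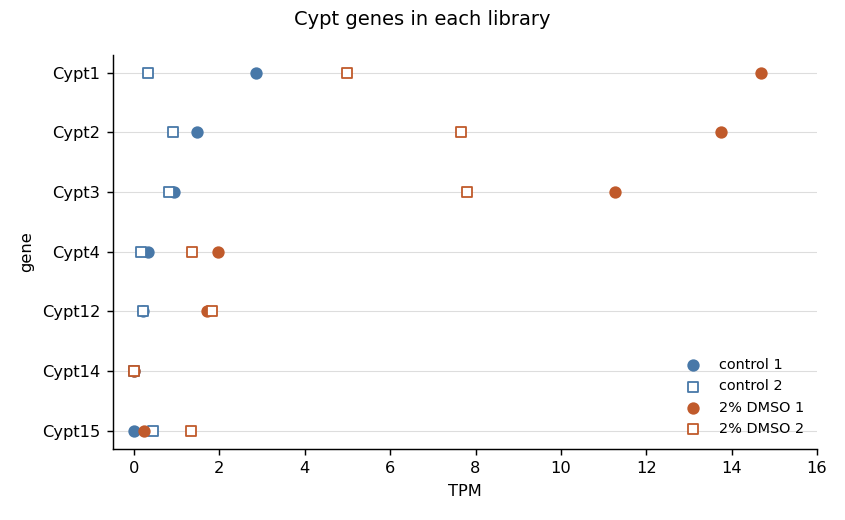
TPM (x axis) of the 7 Cypt genes in each library, with blue for control, orange for 2% DMSO, circles for replicate 1 and squares for replicate 2. Cypt1, Cypt2 and Cypt3 lie between 4.98 and 14.7 TPM in DMSO and at or under 2.86 TPM in the controls.

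Because Cypt genes are known from the male germ line, 9 sperm and spermatid markers were set beside them. Of these, 2 averaged 1 TPM or more and were tested, and both were called higher, where 6.42% of all genes were. Prm2, a protamine gene that packs sperm DNA, had 2.56, 2.86, 11.0 and 6.79 TPM and was called higher (log2 fold change 1.39, SE 0.36, limma adjusted p = 0.0408). Tnp1, a transition protein gene, had 0.281, 0, 2.08 and 1.69 TPM (1.35, SE 0.35, limma adjusted p = 0.0429). It was in the test only through its DMSO values and was not called with a pseudocount of 0.1 (limma adjusted p = 0.0845). The 9 markers summed to 3.36 and 3.38 TPM in the controls and 13.8 and 8.76 TPM in DMSO, with Prm2 the most abundant. Tnp2 and Smcp were at 0 in all libraries, and Prm1, the other protamine gene, had 0, 0.526, 0.267 and 0 TPM. The part of these markers in the level of Cypt3 was not tested.

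Gm5039 is a copy of Eif1a, the gene of a translation initiation factor that helps the ribosome find the start codon. GENCODE M21 annotates it as protein coding and RefSeq as a transcribed pseudogene. It lies on chr12:88320122-88324026 (minus strand), in a cluster of Eif1a-like genes on chromosome 12. It was listed at 0 in both controls and at 28.9 and 4.68 TPM in DMSO, so that the DMSO libraries differed 6.17-fold, the widest gap of the set. Its 435-base coding sequence differs from the 11 Eif1a-like genes of the table at 10 to 13 positions (97.0% to 97.7% identity) and from Eif1a at 23 (94.7%). At 3 positions Gm5039 differs from all 12 of these genes, written with the base of Gm5039 first, the position counted from 1 at the start of the coding sequence, and then the base of the others. These are A78G, C371G and T420C. The last 90 bases of the coding sequence hold the latter pair of positions. They are shown for Gm5039, its closest relative Gm2035, Gm5662, the nearest Eif1a-like gene of the table by position, and Gm6803. Capitals mark in Gm5039 the bases found in none of the others, and in the other genes the bases that differ from Gm5039.
Gm5039: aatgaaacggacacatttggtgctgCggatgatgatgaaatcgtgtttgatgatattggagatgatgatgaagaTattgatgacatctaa
Gm2035: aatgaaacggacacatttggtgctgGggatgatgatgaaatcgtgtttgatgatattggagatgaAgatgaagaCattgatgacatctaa
Gm5662: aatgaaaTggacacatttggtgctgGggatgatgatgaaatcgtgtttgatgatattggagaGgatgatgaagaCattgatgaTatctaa
Gm6803: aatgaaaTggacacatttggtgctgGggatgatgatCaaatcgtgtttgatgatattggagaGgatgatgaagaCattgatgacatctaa

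All 11 Eif1a-like genes other than Gm5039 were present in the controls and were called higher in DMSO, against 6.42% of all genes tested. These genes are close copies, and kallisto divides the reads they share by an estimate, so the 11 calls are not independent of one another. Their log2 fold changes ran from 1.06 to 2.84 with a median of 1.91. Gm5662 had 225.3 and 149.9 TPM in the controls and 1275 and 782.9 TPM in DMSO (log2 fold change 2.44, SE 0.34, limma adjusted p = 0.0181). Gm6803 had the largest change, from 33.8 and 20.1 TPM to 241.2 and 154.5 TPM (2.84, SE 0.36, limma adjusted p = 0.0181), and Gm21319 the smallest (1.06, SE 0.29, limma adjusted p = 0.0462), which was not called with a pseudocount of 0.1 (0.0542). Together the 11 genes summed to 1023 and 800.3 TPM in the controls and 4834 and 3089 TPM in DMSO.

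Neither gene of the factor itself was called higher. Eif1a had 63.2, 61.0, 25.6 and 29.7 TPM and was called lower (log2 fold change -1.14, SE 0.26, limma adjusted p = 0.0323), a call lost with quantile normalization (-0.90, limma adjusted p = 0.0585). Eif1ax had 25.2, 31.1, 21.1 and 22.2 TPM (-0.36, SE 0.28, limma adjusted p = 0.356, not called). Gm5039 shares 36.5% of its words with other genes, at most 21.8% with a single one (BB287469 and Gm4027), and was below each of the 11 copies in every library. Whether its value came from reads of its relatives was not tested. Leaving out a library left the log2 fold changes of all 11 genes positive, from 0.80 to 3.20, with limma adjusted p-values of 0.0290 to 0.232.

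**Figure D5:**
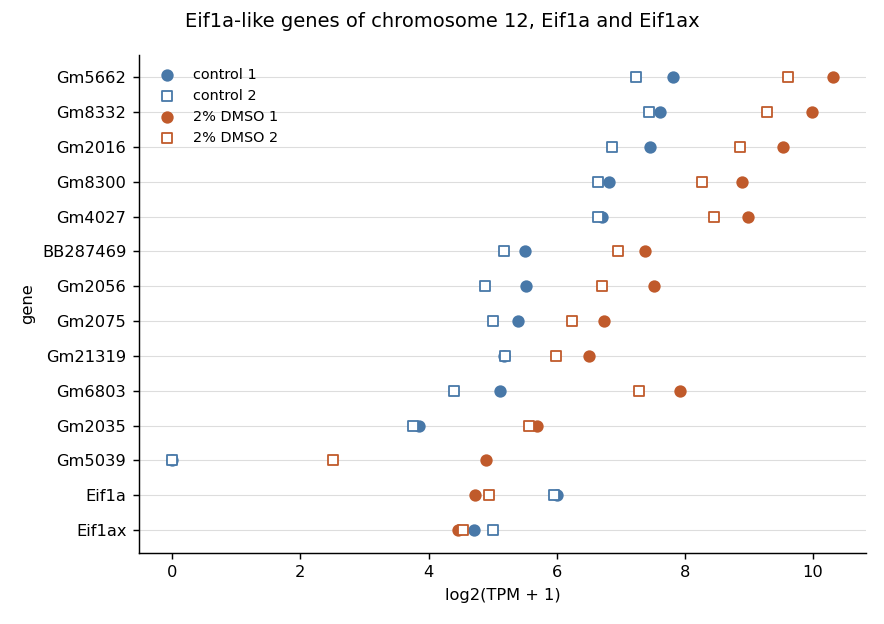
Eif1a-like genes of chromosome 12, Eif1a and Eif1ax (rows) by log2(TPM + 1) in each library, with blue for control, orange for 2% DMSO, circles for replicate 1 and squares for replicate 2. Gm5039 is the one copy at 0 in the controls, and Eif1a lies lower in DMSO.

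Gm2888 is a predicted gene of unknown function at chr14:3030002-3038762 (plus strand), part of a family of copies near the start of chromosome 14. Its values were 0 and 0.234 TPM in the controls and 5.42 and 4.28 TPM in DMSO. Of its words 79.9% occur in other genes. The largest share held by a single gene was 42.9% of its words, in Gm6337, which was under 0.2 TPM in all libraries. Of the 134 genes of the table that share words with Gm2888, 95 on chromosome 14 each hold at least 5% of its words. These 95 were taken as its relatives, and 58 of them were at 0 in all libraries. Gm2888 was above each of the 95 in both DMSO libraries, where the choice of the set required at least 4 TPM of it. Of the 5 that could be tested, 2 were called higher (6.42% of all genes were), Gm3029 at 0.421, 0, 4.32 and 2.34 TPM (log2 fold change 1.82, SE 0.40, limma adjusted p = 0.0311) and Gm3727 at 0, 0.384, 2.47 and 1.88 TPM (1.43, SE 0.37, limma adjusted p = 0.0408). Both entered the test only through their DMSO values, so test and call are not independent, and with a pseudocount of 0.1 neither was called (limma adjusted p = 0.0555 and 0.0817). With so many shared words the split of reads among these copies is uncertain.

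Ighv6-6 is a variable segment of the immunoglobulin heavy chain, one of many that B cells join to make an antibody gene. It lies on chr12:114434788-114435244 (minus strand). It was listed at 0 in both controls and at 6.13 and 5.01 TPM in DMSO. Its nearest relative Ighv6-3, which holds 29.1% of its words, had 0, 0.807, 0 and 0 TPM, and its neighbours Ighv6-5 and Ighv6-7 were at 0 throughout. Of the 174 other Ighv segments 154 were at 0 in all libraries, and 1 of the 2 tested was called higher, where 6.42% of all genes were. This was Ighv1-60, at 44.9, 27.5, 149.5 and 132.0 TPM (log2 fold change 1.97, SE 0.31, limma adjusted p = 0.0200). The other, Ighv1-43, at 0, 0, 5.04 and 0 TPM, was in the test through a single DMSO value.

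Trav13-3 is a T cell receptor alpha variable segment annotated as a pseudogene, on chr14:53729558-53730074 (plus strand). Its values were 0.863 and 0 TPM in the controls and 6.24 and 5.40 TPM in DMSO. It is nearly a copy of Trav13d-3, which holds 92.2% of its words. Trav13d-3 had 1.37, 2.44, 3.60 and 4.31 TPM (log2 fold change 0.79, SE 0.36, limma adjusted p = 0.147, not called), so the level of Trav13-3 is uncertain. Of the 102 other Trav segments 81 were at 0 in all libraries, and none of the 2 tested was called, where 20.5% of all genes were called in either direction.

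Since antigen receptor segments are used by lymphocytes, 12 blood and immune cell markers were examined. Of the 5 that could be tested, none was called, where 6.42% of all genes were called higher and 14.1% lower, and their median log2 fold change was 0.73 against -0.09 for all genes. They summed to 21.2 and 9.21 TPM in the controls and 16.4 and 39.0 TPM in DMSO, with overlapping groups. The most abundant was the haemoglobin gene Hba-a2, at 6.94, 2.51, 6.90 and 11.7 TPM. DMSO replicate 2 stood apart in 2 markers of myeloid cells, Lyz2 at 0.747, 0.0896, 0.441 and 9.39 TPM and Tyrobp at 0, 0, 0 and 3.16 TPM. The T cell marker Cd3e and the haemoglobin gene Hbb-bt were at 0 in all libraries, and Ptprc, a marker of all white blood cells, did not exceed 0.203 TPM. The part of these markers in the levels of Ighv6-6 and Trav13-3 was not tested.

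Gm11810 is a processed pseudogene related to Rpl35a, a protein of the large ribosomal subunit, on chr4:8456166-8456498 (minus strand). Its values were 0.875 and 0.453 TPM in the controls and 4.16 and 9.07 TPM in DMSO, and it was the one member higher in DMSO replicate 2. It shares 29.4% of its words with 26 genes. Rpl35a itself was called lower, from 113.8 and 156.7 TPM to 31.1 and 58.0 TPM (log2 fold change -1.63, SE 0.37, limma adjusted p = 0.0318). Of the 23 relatives of Gm11810 in the table, 4 could be tested, and none was called higher and 1, Rpl35a, lower, where 6.42% and 14.1% of all genes were. With quantile normalization Rpl35a was not called (log2 fold change -1.35, limma adjusted p = 0.0609).

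Gm10491 is a predicted protein-coding gene of 117 exon bases on chrX:7907693-7907835 (minus strand), and all 117 lie in the 3′ untranslated region of Timm17b, a mitochondrial import gene on the opposite strand. It was listed at 0 in both controls and at 7.09 and 4.66 TPM in DMSO. Timm17b had 113.9, 111.3, 53.6 and 68.6 TPM (log2 fold change -0.88, SE 0.26, limma adjusted p = 0.0565, not called). The direction of Gm10491 was fixed by the choice of the set, and the part of Timm17b reads in its level was not tested. The words of Gm10491 were also found in 1463 genes, Timm17b holding 66.7% of these words. Reads of Gm10491 and Timm17b cannot be told apart without strand. With this overlap and the words shared with other genes, the value of Gm10491 is uncertain.

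AC164084.1 was by far the highest member, at 0 TPM in both controls and 62.1 and 51.8 TPM in DMSO. Of the genes of the table, 5.48% were at least as high in both DMSO libraries, against 18.3% to 24.1% for the other members. It is a predicted protein-coding gene of unknown function on the scaffold JH584296.1, outside the assembled chromosomes (195181 to 197903, minus strand), with a transcript of 837 bases in 2 exons. The other genes next to it on the scaffold, AC164084.2 and AC164084.3, were at 0 in all libraries. Its sequence was not analysed here, so its relation to other genes is not given.

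Of the 24 nearest neighbours on either side, 9 could be tested, and 1 was called higher and 1 lower, where 20.5% of all genes tested were called in either direction. Rab2a, a gene of vesicle traffic 79.1 kb from Gm11810, had 38.5, 36.9, 109.2 and 67.7 TPM (log2 fold change 1.17, SE 0.31, limma adjusted p = 0.0444, and 0.0526 with a pseudocount of 0.1). Smarca4, a chromatin remodelling gene 23.3 kb from Yipf2, had 55.2, 43.2, 23.0 and 19.4 TPM (-1.17, SE 0.28, limma adjusted p = 0.0364, and 0.0515 with quantile normalization).

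None of the 13 genes belonged to any of the lists set beside them. The counts that follow stand against 6.42% of all genes tested called higher and 14.1% called lower, and a median of -0.09. Of 11 immediate-early genes tested, 1 was higher and 2 lower (median log2 fold change 0.43), of 14 p53 target genes 2 were higher and 2 lower (-0.38), and of 10 interferon-stimulated genes none was higher and 1 lower (0.11). Of 20 germline genes silenced by promoter methylation in somatic cells, none was higher and 2 were lower (0.10). Of the 2 neuronal and muscle genes tested none was called (1.45), nor was Snhg11 (-0.81), the 1 gene of 20 listed long noncoding RNA genes that the table holds. Among markers of other cells, none of 1 cumulus and granulosa marker tested was called, and no fibroblast marker was abundant enough to be tested. Of 4 oviduct epithelium markers tested, 1 was lower. This was Epcam, the most abundant of its list, at 103.6, 92.6, 36.1 and 55.9 TPM in control 1, control 2, DMSO 1 and DMSO 2. Of the 13 oocyte and 2-cell markers tested, 6 were higher and none lower (median log2 fold change 0.96).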

How the data were processed

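RNA of pooled 2-cell embryos was reverse transcribed and amplified with a low-input kit and sequenced in 4 libraries. The authors quantified reads with kallisto on the Ensembl 79 transcriptome of mm10 (GRCm38), summed transcripts per gene and deposited TPM values for 30049 genes. No strand information is stated for the counting. GENCODE M21, also on GRCm38, named 29668 of these genes and gave places, biotypes and transcripts, and its models can differ from those the authors used. Promoters came from RefSeq (GRCm38.p6).

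The 13 genes were found by the stated limits. The members and lists were chosen with earlier results of these data known. All 13 are named. Other genes are named as the 5 closest to each limit, family members, overlapping or neighbouring genes, and genes sharing most words. Some of these were chosen after their values were seen.

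The test was limma 3.58.1 (R 4.3.3) on log2(TPM + 1) for genes averaging 1 TPM or more (eBayes with trend, no covariate, Benjamini-Hochberg at 0.05). The steps were tested on simulated data. The smallest p that an exact permutation test can give for 1 gene here is 0.333. Python 3.11.15, pandas 2.3.3 and matplotlib 3.10.9 were used for other steps. Alternatives were other TPM limits, a pseudocount of 0.1, other filters, median-ratio and quantile scaling, the replicate number as a block, and leaving out each library, where the lone library of a group is assumed to vary like the others.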

Additional observations from a re-analysis of the deposited data

How the results depend on the processing

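The size of the set depended on its limits. It was 5 with a control limit of 0.5 TPM, 60 with a control limit of 2 TPM, 112 with a DMSO limit of 2 TPM, 1 (AC164084.1) with a DMSO limit of 8 TPM, and 5 when only genes sharing under 20% of their words were kept. Leaving out a library gave 29 to 82 genes. Over all genes tested by limma, 0 were called in either direction with no filter on low values (2124 higher and 3244 lower at an unadjusted p under 0.05), and 1085 were lower with quantile normalization. Median-ratio scaling gave 871 higher and 1363 lower. Leaving out a library gave 0 to 607 higher and 0 to 1276 lower. With the replicate number as a block, 2151 were higher and 2981 lower. Same-numbered libraries deviated together across 12038 genes (r = 0.35), but with 2 pairs the numbers were not taken to pair the samples. The median log2 fold change of immediate-early genes was 0.43, 0.15 with no filter and 0.12 to 0.74 with a library left out. That of interferon-stimulated genes was -0.27 with the filter raised to 5 TPM, and that of neuronal and muscle genes 0.061 with no filter. The causes were not tested. Through each alternative 48 relatives, neighbours and markers were followed, some of them chosen after their values were seen. Of the 48, 27 were called, where 20.5% of all genes tested were. None of the 27 reversed its direction. Among the others 6 did. With a library left out, log2 fold changes ran from -0.026 to 0.72 for Gm3194 and Gm3383 (relatives of Gm2888), -0.32 to 0.46 for Gm12778 (a relative of Gm11810), -0.22 to 0.87 for Yipf6, -0.58 to 0.71 for Rln3 and -0.36 to 0.10 for Trim24, which was 0.12 with quantile normalization. TPM values keep no depth, so no floor can be set for values listed at 0.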
